A study of Mus musculus with 6 samples.

Results

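The genes described here are 46 mouse genes of fatty acid use: uptake into the cell, activation to acyl-CoA, the carnitine shuttle, mitochondrial and peroxisomal beta-oxidation, and the steps that feed into or control them. They were looked up by gene name in the deposited count table. All 46 were found among its 54929 rows, and each belongs to 1 of 12 steps. The tissue was the left ventricle of wild-type C57BL/6 mice, and all mice had undergone TAC (transverse aortic constriction), an operation that narrows the aorta and so loads the ventricle with pressure. The study asked what blocking PD-1, which restrains T cells once they are activated, changes in this loaded ventricle. The anti-PD-1 group was given an anti-PD-1 antibody by the intraperitoneal route (TAC + anti-PD-1, 3 libraries) and the control group an anti-IgG antibody by the same route (TAC + anti-IgG, 3 libraries). The dose was 10 mg/kg every 3 days in each group, begun on day 14 after the operation, and the time label of every sample is 5 weeks. No unoperated ventricles were analysed here, so the values compare the antibodies within TAC only.

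Fatty acids are the main fuel of the adult heart. They are released from circulating lipoproteins, enter through membrane carriers, are bound by a cytosolic binding protein and are linked to coenzyme A. Carnitine carries the long-chain acyl group across the mitochondrial inner membrane. Each turn of beta-oxidation then removes an acetyl unit through dehydrogenation, hydration, a further dehydrogenation and thiolysis, and passes electrons to the respiratory chain. Malonyl-CoA, formed by acetyl-CoA carboxylase, inhibits the entry step, and nuclear receptors of the PPAR and ERR families switch on many of these genes. The pressure-loaded heart is known for lowering this programme.

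The libraries held 18063344 to 21093163 counted reads. Mitochondrially encoded transcripts made up 28.9 to 35.6% of reads with anti-PD-1 and 29.9 to 39.3% with anti-IgG. The 46 genes took 1.73, 1.99 and 1.51% of the reads with anti-PD-1, against 2.32, 1.71 and 1.79% with anti-IgG. Levels are given as CPM, read counts scaled to the library's total after TMM normalisation, or per length as the authors' FPKM. A log2 fold change is anti-PD-1 over anti-IgG with its standard error (SE). A gene rose or fell where the Benjamini-Hochberg adjusted p of edgeR's quasi-likelihood test, 2-sided and adjusted over all 14807 tested genes, was under 0.05. Whether each library is a separate animal is not in the labels, and p-values therefore describe the spread between these 6 samples alone.

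The libraries carried the markers of ventricular tissue. The 8 cardiomyocyte markers summed to 18531, 33144 and 22558 CPM with anti-PD-1, against 30298, 33943 and 40475 CPM with anti-IgG. Of these markers, Ryr2 rose (log2 fold change 1.39, adjusted p = 0.00644) and 3 sarcomere genes fell, Tnnt2 (-1.22), Tnni3 (-1.35) and Myl2 (-1.87; adjusted p from 0.0138 to 0.0225). With the gene length trend removed, as described below, 1 of the 8 rose and 2 fell. With the transcript length trend removed 0 rose and 0 fell. Of the endothelial, fibroblast and smooth muscle markers 0 of 17 passed the threshold in either direction. Of 5 macrophage markers 1 rose (Adgre1) and 1 fell (C1qa). With the gene length trend removed Adgre1 passed (edgeR adjusted p = 0.0160) and C1qa did not (0.214). With the transcript length trend removed the values were 0.0258 and 0.222. Of 5 T cell markers 2 could be tested, Cd8a and Cd4, and 0 passed. Of 2 tested skeletal muscle and 3 tested erythrocyte markers 0 passed, but Acta1 rose with the gene length trend removed (adjusted p = 0.0410). The white adipocyte markers were near 0: Adipoq had 0 reads in each library with anti-PD-1, against 6, 7 and 1 reads with anti-IgG. The brown fat marker Ucp1 had 0 reads in all 6 libraries, and Elovl3 had 0 to 5 reads a library. Cidea, of the same list, had 165, 296 and 235 reads with anti-PD-1, against 296, 243 and 454 reads with anti-IgG.

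In total 4 of the 46 genes rose and 3 fell, and 39 did not pass the threshold. Among all tested genes 21.1% passed, 10.3% upwards and 10.8% downwards. With upper quartile scaling the split of all tested genes moved to 1178 risen and 2022 fallen, against 1525 and 1593 with TMM, and 4 of the 46 genes rose and 4 fell, with Acaa1a added. The median log2 fold change of the 46 genes was -0.04, ranging from -2.15 to 1.16, beside a median of -0.03 over all tested genes. The sign of this median was not stable: it was 0.05 with the gene length trend removed (each library's dependence of CPM on gene length taken out), 0.08 with the transcript length trend removed (the same for coding and 3′ UTR length), and -0.25 (without anti-PD-1 library 2) to 0.18 (without anti-IgG library 1) with a library left out. The values of the 3 anti-PD-1 and 3 anti-IgG libraries did not overlap in 13 of the 46 genes, beside 41.0% of all tested genes. The genes that rose were those of acyl-CoA synthetases (Acsl1, Acsl4) and of both acetyl-CoA carboxylases (Acaca, Acacb). Those that fell encode a fatty acid binding protein (Fabp3), an enoyl-CoA isomerase (Eci1) and a thioesterase (Acot13). The 19 genes of the mitochondrial oxidation cycle, its auxiliary enzymes and its electron transfer had a median log2 fold change of -0.21, and 0 of them rose and 1 fell. Their median was -0.11 with the gene length trend removed and 0.02 with the transcript length trend removed, with 0 risen and 0 fallen in each. In bulk tissue, fewer cells of a type and less RNA per cell cannot be told apart.

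**Figure D1:**
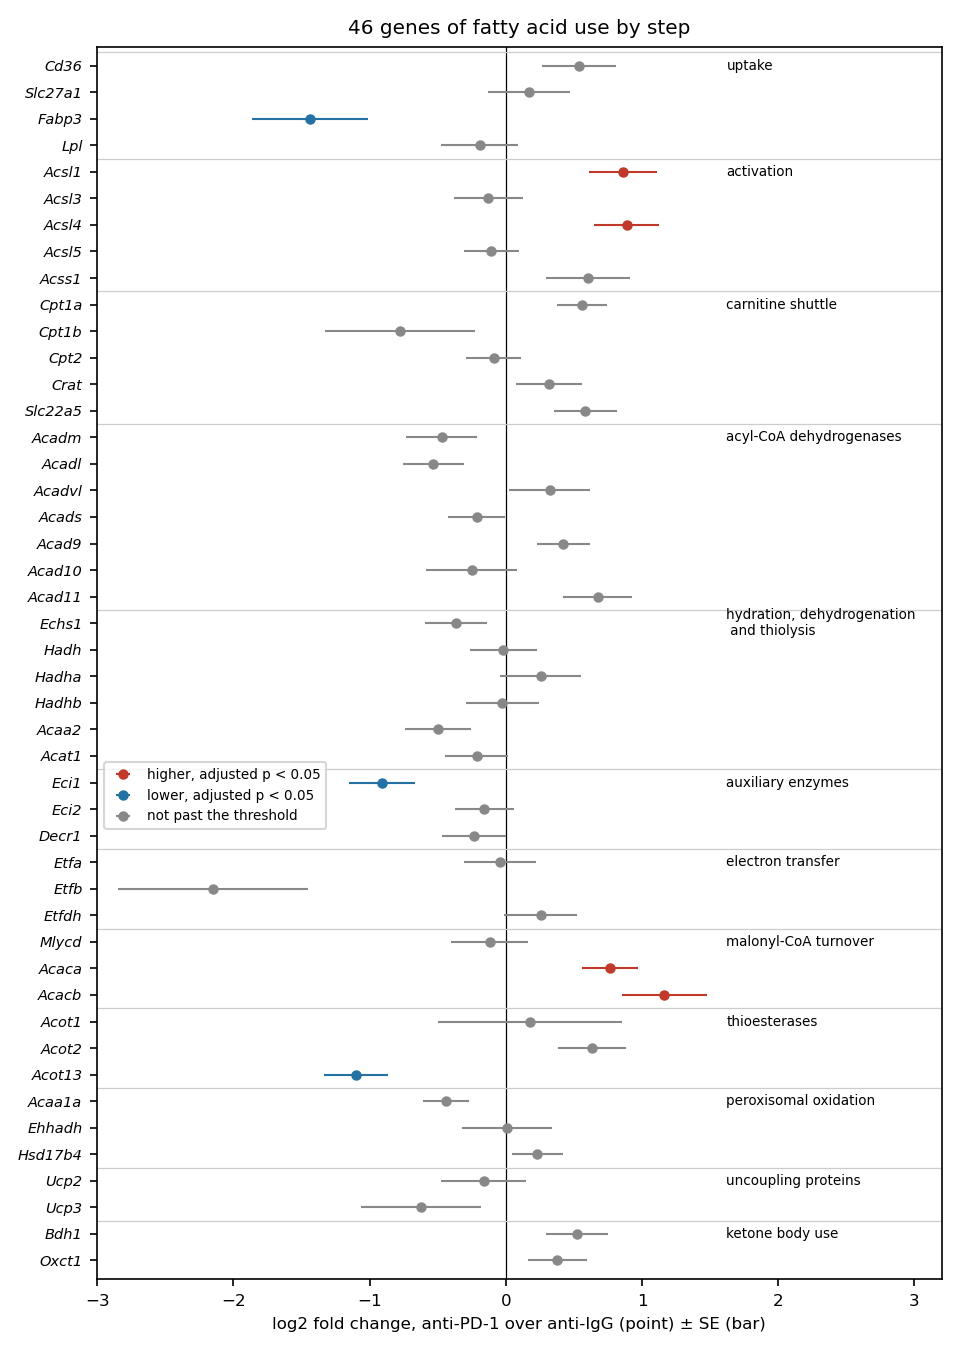
Log2 fold change of each of the 46 genes, anti-PD-1 over anti-IgG, on the x axis, with genes in rows grouped by step; points are the edgeR estimates and bars their SE, from 3 libraries per group. Red points (Acsl1, Acsl4, Acaca, Acacb) rose, blue points (Fabp3, Eci1, Acot13) fell, and the grey points of the other 39 genes did not pass the threshold.

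Lipoprotein lipase (Lpl), which frees fatty acids from circulating triglyceride, had 5724, 7544 and 5110 CPM with anti-PD-1, against 8380, 7558 and 5061 CPM with anti-IgG. The ranges of the groups overlapped almost fully, and the log2 fold change was -0.19 (SE 0.28, edgeR adjusted p = 0.654). Cd36, the main fatty acid translocase of cardiomyocytes and capillary endothelium, had 2594, 2803 and 1927 CPM with anti-PD-1, against 2224, 1555 and 1270 CPM with anti-IgG. Anti-PD-1 library 3 lay below the highest anti-IgG library, and the difference was not past the threshold (0.54, SE 0.27, adjusted p = 0.174). The transporter Slc27a1 (FATP1) had a log2 fold change of 0.17 (adjusted p = 0.723).

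Fabp3 encodes the heart fatty acid binding protein, which carries fatty acids through the cytosol (ENSMUSG00000028773, mm10 chromosome 4, 130308595 to 130315463). It had 396, 1193 and 743 CPM with anti-PD-1, against 1238, 2043 and 3026 CPM with anti-IgG. All anti-PD-1 libraries lay below all anti-IgG libraries, although anti-PD-1 library 2 came close to anti-IgG library 1. Fabp3 fell by 1.44 on the log2 scale (SE 0.43, adjusted p = 0.0407). Its lowest library, anti-PD-1 1, was also the lowest for the summed cardiomyocyte markers, and its highest, anti-IgG 3, the highest for them; the part of this in the result was not tested. Per length Fabp3 was the most abundant of the 46 genes, at 889 ± 445 FPKM with anti-PD-1 and 2376 ± 1013 FPKM with anti-IgG (SD, n = 3 each). Lpl followed at 552 ± 104 FPKM with anti-PD-1 and 622 ± 154 FPKM with anti-IgG, and Cd36 at 642 ± 113 FPKM with anti-PD-1 and 437 ± 130 FPKM with anti-IgG. The spreads of Lpl and Cd36 overlapped, but their order within each library differed by group. With anti-PD-1, Cd36 was above Lpl in each library (688, 725 and 514 FPKM against 520, 668 and 467 FPKM). With anti-IgG, Lpl was above Cd36 in each library (750, 664 and 451 FPKM against 581, 399 and 330 FPKM). This difference in order was not tested.

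Of the 5 activation genes 2 rose and 0 fell, beside 10.3% and 10.8% of all tested genes. Their median log2 fold change was 0.60. The median was 0.33 without anti-PD-1 library 2 and 0.36 without anti-IgG library 2. Acsl1, the main long-chain acyl-CoA synthetase of the heart (ENSMUSG00000018796, chromosome 8, 46471037 to 46536051), had 678, 974 and 515 CPM with anti-PD-1, against 410, 350 and 432 CPM with anti-IgG. Every anti-PD-1 library exceeded every anti-IgG library, and the anti-PD-1 libraries spread more widely. The rise was 0.86 on the log2 scale (SE 0.25, edgeR adjusted p = 0.0354).

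Acsl4, a synthetase that prefers arachidonate and other polyunsaturated fatty acids (ENSMUSG00000031278, chromosome X, 142317993 to 142390535), had 45.4, 28.6 and 35.1 CPM with anti-PD-1, against 25.9, 16.3 and 16.7 CPM with anti-IgG. The groups did not overlap, with anti-PD-1 library 2 just above anti-IgG library 1, and the rise was 0.89 (SE 0.24, adjusted p = 0.0261). The other synthetases did not pass: Acsl3 had a log2 fold change of -0.13 and Acsl5 of -0.11. Acss1, which activates acetate in mitochondria, had 0.60 (SE 0.31, adjusted p = 0.181). Per length Acsl1 was the highest of the activation genes, at 64.9 ± 19.8 FPKM with anti-PD-1 and 35.3 ± 4.04 FPKM with anti-IgG.

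None of the 5 carnitine shuttle genes passed the threshold, and their median log2 fold change was 0.32, or 0.05 without anti-PD-1 library 2 and 0.16 without anti-IgG library 2. Closest was Cpt1a, the carnitine palmitoyltransferase isoform that dominates in liver and is present in heart, with 51.3, 74.6 and 60 CPM with anti-PD-1, against 39.4, 42.9 and 44.0 CPM with anti-IgG. Its groups did not overlap, and its log2 fold change was 0.56 (SE 0.18, edgeR adjusted p = 0.0513). The authors' length for Cpt1a is 4300 bp, while its exons cover 7642 bp in the GENCODE M21 annotation. The plasma membrane carnitine transporter Slc22a5 (OCTN2) had 0.58 (adjusted p = 0.089), and Crat, the carnitine acetyltransferase that buffers acetyl-CoA, 0.32 (adjusted p = 0.37). Cpt2, which rebuilds acyl-CoA on the matrix side, had the highest mean FPKM of the step. With anti-PD-1 it lay within the spread of Crat (64.7 ± 13.3 FPKM and 61.1 ± 17.6 FPKM). With anti-IgG it lay above Crat (67.9 ± 4.30 FPKM and 48.5 ± 8.35 FPKM). Cpt2 had 145, 206 and 140 CPM with anti-PD-1, against 186, 172 and 166 CPM with anti-IgG. Its anti-IgG libraries lay within the span of the anti-PD-1 libraries (-0.09, SE 0.20, adjusted p = 0.783).

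Cpt1b is known as the muscle isoform of carnitine palmitoyltransferase and the main one of the heart. It was nevertheless the lowest of the 46 genes per length, at 0.186 ± 0.108 FPKM with anti-PD-1 and 0.315 ± 0.108 FPKM with anti-IgG, and it had 8, 21 and 10 reads with anti-PD-1, against 14, 27 and 24 reads with anti-IgG. The groups overlapped, and the log2 fold change was -0.78 (SE 0.55, edgeR adjusted p = 0.329). In the GENCODE M21 annotation, 2744 bp of its exons, 81.4%, are shared with Gm44502, a gene on the same strand, and Gm44502 had 0 reads in all 6 libraries. Etfb, the beta subunit of the electron transfer flavoprotein, likewise shares 53.0% of its exon bases with the same-strand gene Gm45233, which also had 0 reads in all libraries. The part of these overlaps in the counts was not tested, and the levels of Cpt1b and Etfb are uncertain.

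The acyl-CoA dehydrogenases, which open each turn of the cycle for chains of different length, had a median log2 fold change of -0.21, with 0 of 7 past the threshold. The direction turned with the gene length trend removed (median 0.13) and with the transcript length trend removed (0.05), and the median ran from -0.33 to -0.07 with a library left out. Acadl, the long-chain enzyme and the most abundant of them per length (255 ± 51.8 FPKM with anti-PD-1 and 364 ± 38.7 FPKM with anti-IgG), had 448, 675 and 500 CPM with anti-PD-1, against 871, 759 and 719 CPM with anti-IgG. All its anti-PD-1 libraries lay below its anti-IgG libraries, but the log2 fold change of -0.53 (SE 0.22) gave an edgeR adjusted p of 0.109. The medium-chain enzyme Acadm had -0.47, with overlapping groups (adjusted p = 0.214). The short-chain enzyme Acads had -0.21 and the low-abundance Acad10 had -0.25. Values above 0 were seen for the very-long-chain enzyme Acadvl (0.32), for Acad9, which also serves complex I assembly (0.42), and for Acad11 (0.67, adjusted p = 0.0783). Of the exon bases of Acadvl, 42.9% lie opposite Dvl2, and reads of such pairs cannot be told apart unless counting used strand, which the sources used here do not state.

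For hydration, the further dehydrogenation and thiolysis, 0 of 6 genes passed the threshold and the median was -0.12, with a range of -0.32 to 0.05 when a library was left out. Hadha and Hadhb, the subunits of the mitochondrial trifunctional protein, which carries out these reactions on long chains, had log2 fold changes of 0.26 and -0.03. Echs1, the short-chain enoyl-CoA hydratase, had -0.37, the 3-hydroxyacyl-CoA dehydrogenase gene Hadh -0.02 and the acetoacetyl-CoA thiolase gene Acat1 -0.21. Acaa2, the mitochondrial 3-ketoacyl-CoA thiolase and the most abundant of these per length, had 314, 438 and 265 CPM with anti-PD-1, against 569, 387 and 479 CPM with anti-IgG. Anti-PD-1 library 2 stood above anti-IgG library 2, and the difference was not past the threshold (-0.50, SE 0.24, adjusted p = 0.16).

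The auxiliary enzymes handle double bonds of unsaturated fatty acids. Eci1, the mitochondrial enoyl-CoA delta isomerase (ENSMUSG00000024132, chromosome 17, 24426683 to 24439316), had 76.2, 140 and 83.1 CPM with anti-PD-1, against 200, 170 and 191 CPM with anti-IgG. The groups were apart, with anti-PD-1 library 2 nearest to the anti-IgG libraries, and Eci1 fell by 0.91 on the log2 scale (SE 0.24, edgeR adjusted p = 0.0245). It was the only 1 of the 19 mitochondrial oxidation genes past the threshold. The isomerase Eci2 had -0.16 and the dienoyl-CoA reductase Decr1 -0.23, neither past the threshold.

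Electron transfer from the dehydrogenases runs through the flavoprotein of Etfa and Etfb and its ubiquinone oxidoreductase, Etfdh. Etfa had 227, 374 and 255 CPM with anti-PD-1, against 387, 211 and 285 CPM with anti-IgG, and Etfdh had a log2 fold change of 0.26. The Etfa groups covered much the same range (-0.04, SE 0.27, adjusted p = 0.921). Etfb was counted far lower and had 1.55, 9.97 and 4.71 CPM with anti-PD-1, against 11.5, 20.8 and 39.5 CPM with anti-IgG. Its groups did not overlap, and its log2 fold change of -2.15 was the lowest of the 46 genes, but with an SE of 0.70 it missed the threshold (edgeR adjusted p = 0.0708). Etfb passed with DESeq2 (adjusted p = 0.0443) and limma-voom (0.0266), and had -1.50 (edgeR adjusted p = 0.163) with the gene length trend removed and -1.43 (0.188) with the transcript length trend removed. As with Fabp3, its lowest library was anti-PD-1 1 and its highest anti-IgG 3.

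Malonyl-CoA turnover held the largest rise among the 46 genes. Acacb encodes acetyl-CoA carboxylase 2, the isoform at the mitochondrial outer membrane whose malonyl-CoA inhibits carnitine palmitoyltransferase 1 (ENSMUSG00000042010, chromosome 5, 114146535 to 114250761). It had 297, 418 and 183 CPM with anti-PD-1, against 168, 94.5 and 137 CPM with anti-IgG, and rose by 1.16 on the log2 scale (SE 0.31, edgeR adjusted p = 0.0261). Every anti-PD-1 library was above every anti-IgG library, though anti-PD-1 library 3 was only slightly above anti-IgG library 1.

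Acaca, the cytosolic carboxylase of fatty acid synthesis (ENSMUSG00000020532, chromosome 11, 84129672 to 84401651), had 15.7, 17.7 and 19.7 CPM with anti-PD-1, against 11.7, 8.73 and 10.8 CPM with anti-IgG. The groups were clearly apart, and the rise was 0.76 (SE 0.20, adjusted p = 0.0256). Per length Acacb stood far above Acaca, at 29.2 ± 11.0 FPKM against 0.981 ± 0.116 FPKM with anti-PD-1, and at 12.9 ± 3.69 FPKM against 0.568 ± 0.0879 FPKM with anti-IgG. Mlycd, the malonyl-CoA decarboxylase that removes malonyl-CoA again, had 45.7, 85.1 and 42.1 CPM with anti-PD-1, against 54.7, 52.5 and 80.4 CPM with anti-IgG. Its groups overlapped (-0.12, SE 0.28, adjusted p = 0.793).

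**Figure D2:**
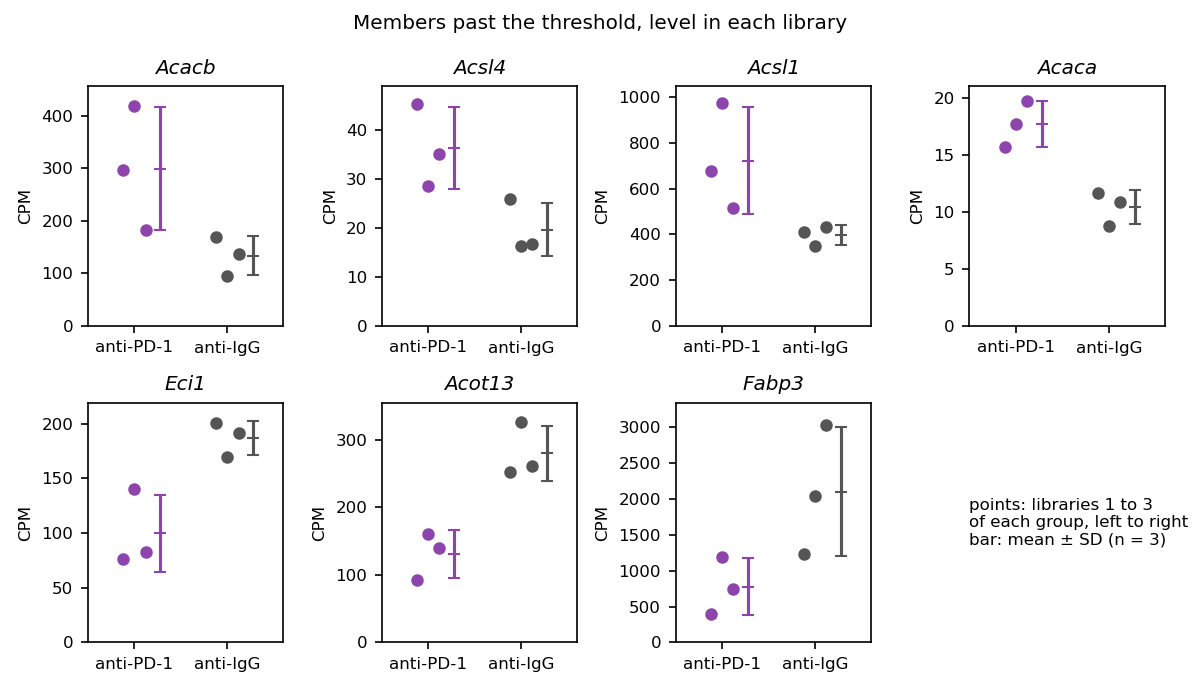
CPM of the 7 genes past the threshold in each library (points, libraries 1 to 3 of a group from left to right), with mean ± SD per group (bars, n = 3), anti-PD-1 left of anti-IgG in each panel and axes from 0. In Acacb, Acsl4, Acsl1 and Acaca all anti-PD-1 points lie above the anti-IgG points, and in Eci1, Acot13 and Fabp3 all lie below.

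Thioesterases release free fatty acids from acyl-CoA. Acot13 (ENSMUSG00000006717, chromosome 13, 24817948 to 24831540), a small mitochondrial thioesterase, had 91.7, 161 and 140 CPM with anti-PD-1, against 253, 327 and 261 CPM with anti-IgG. The groups were separated by a wide gap, and Acot13 fell by 1.10 on the log2 scale (SE 0.23, edgeR adjusted p = 0.0121), the lowest adjusted p of the 46 genes. The mitochondrial Acot2 had a log2 fold change of 0.64 (adjusted p = 0.0919) and the cytosolic Acot1 of 0.18 (SE 0.67, adjusted p = 0.877).

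Acot1 and Acot2 lie beside each other on chromosome 12 and are near-identical copies, so short reads can fit either, and how the authors counted such reads is not stated in what was used here. Their coding sequences in GENCODE M21 (1257 bp in Acot1 and 1359 bp in Acot2) were 95.3% identical over 1236 aligned bases. The longest stretch without any difference was 273 bp, bases 887 to 1159 of the Acot1 coding sequence and 1010 to 1282 of that of Acot2. Its first 150 bases are shown because a read inside them cannot be assigned to either gene by its sequence.
Acot1 and Acot2, shared coding stretch: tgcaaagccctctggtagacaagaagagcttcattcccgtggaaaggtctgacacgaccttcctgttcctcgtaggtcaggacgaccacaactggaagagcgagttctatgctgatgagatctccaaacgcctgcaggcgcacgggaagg
The counts assigned to Acot1 were 3.29, 6.22 and 0.625 CPM with anti-PD-1, against 4.61, 2.52 and 1.80 CPM with anti-IgG, and those of Acot2 were 56.7, 80.8 and 38.3 CPM with anti-PD-1, against 35.2, 34.2 and 43.7 CPM with anti-IgG. The values of each gene overlapped between groups and are uncertain for this reason.

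In peroxisomes, where very-long-chain fatty acids are shortened, 0 of 3 genes passed the threshold. The thiolase gene Acaa1a had a log2 fold change of -0.44 with groups that did not overlap (adjusted p = 0.0837), and the bifunctional enzyme gene Ehhadh had 0.01. The D-bifunctional protein gene Hsd17b4, the highest of these per length, had 79.6, 94.5 and 68.2 CPM with anti-PD-1, against 77.0, 60.9 and 68.5 CPM with anti-IgG. The groups overlapped (0.23, SE 0.19, edgeR adjusted p = 0.389).

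Ucp2, a mitochondrial carrier of the uncoupling protein family, had 45.4, 85.6 and 56.2 CPM with anti-PD-1, against 42.2, 94.7 and 72.3 CPM with anti-IgG. Its groups shared nearly the same range (-0.16, SE 0.31, adjusted p = 0.745). The muscle family member Ucp3, a known PPAR target, had -0.62 (SE 0.44, adjusted p = 0.335).

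For ketone bodies, the other acetyl-CoA source of the heart, Oxct1, the enzyme that activates acetoacetate, had 887, 1211 and 981 CPM with anti-PD-1, against 851, 710 and 808 CPM with anti-IgG. All its anti-PD-1 libraries exceeded its anti-IgG libraries, yet the log2 fold change of 0.38 (SE 0.22) was not past the threshold (edgeR adjusted p = 0.226). Bdh1, the 3-hydroxybutyrate dehydrogenase, had 0.52 (adjusted p = 0.122).

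The 46 genes varied together between libraries of the same group. Anti-PD-1 library 2 was the highest of its group in 40 of the 46 genes (87.0%), beside 41.3% of all tested genes, and in 18 of the 19 mitochondrial oxidation genes. Anti-IgG library 1 was the highest of its group in 30 of the 46 genes (65.2%, beside 36% of all tested genes) and in 16 of the 19. Anti-IgG library 2 was the lowest in 28 of the 46 (60.9%, beside 27.6%) and in 16 of the 19. The summed CPM of the 19 genes was 4125, 6317 and 4162 with anti-PD-1, against 6701, 4378 and 5298 with anti-IgG, and the ranges of the groups overlapped almost fully. In 10 of the 46 genes (21.7%, beside 37.8% of all tested genes), Fabp3, Etfb and Acot13 among them, anti-IgG library 1 was instead the lowest of its group.

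**Figure D3:**
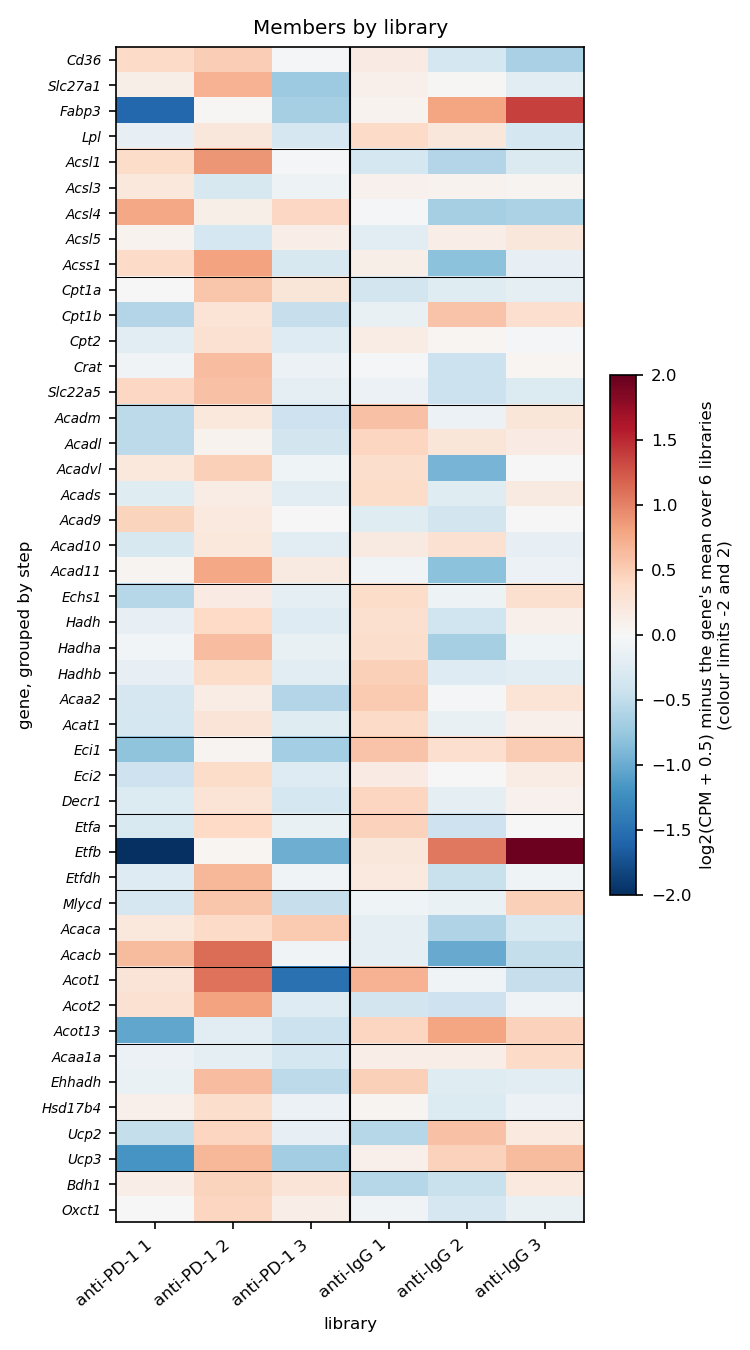
Log2(CPM + 0.5) of each of the 46 genes (rows, grouped by step) in each library (columns, anti-PD-1 left of anti-IgG), minus the gene's mean over the 6 libraries; colours are limited to -2 and 2, which Etfb exceeds. The column of anti-PD-1 library 2 is the warmest of its group in 40 of 46 rows, and that of anti-IgG library 1 in 30 of 46.

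The direction of change followed gene length. The 3 genes that fell have the shortest lengths of the 46 in the authors' table, 744 bp (Acot13), 823 bp (Fabp3) and 1091 bp (Eci1, whose exons cover 2127 bp in GENCODE M21). Those that rose are long, at 5405 bp (Acsl4), 9632 bp (Acacb), 10483 bp (Acsl1) and 17074 bp (Acaca). Across the 46 genes Spearman's rho of log2 fold change and gene length was 0.47, and with the coding plus 3′ UTR length it was 0.65; all 14807 tested genes showed 0.49 with gene length. These are descriptions across genes that share the same 6 libraries.

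The tested genes were split by length into 4 groups of near-equal size. Among the shortest, 57 to 2494 bp, 2.24% rose and 25.6% fell; of the 10 listed genes there 0 rose and 3 fell. From 2496 to 4163 bp, 3.92% rose and 10.4% fell, and 0 of the 15 listed genes passed in either direction. From 4164 to 6525 bp, 10.6% rose and 4.73% fell, and of 10 listed genes 1 rose and 0 fell. Among the longest, 6526 to 123179 bp, 24.5% rose and 2.27% fell; of the 11 listed genes there 3 rose and 0 fell.

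A fit that removed each library's trend on gene length left 10.3% of tested genes past the threshold, 5.17% upwards and 5.13% downwards. In that fit Acsl4 remained (log2 fold change 0.79, edgeR adjusted p = 0.0497), Acot2 passed (1.02, adjusted p = 0.0281), and the other 6 called genes did not pass. Acacb then had 0.82 (adjusted p = 0.0996), Acsl1 0.48 (0.231) and Acaca 0.28 (0.402). Fabp3 had -0.72 (0.186), Acot13 -0.38 (0.219) and Eci1 -0.26 (0.479).

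With the trend on coding and 3′ UTR length removed instead, 5.67% of tested genes passed, 2.96% upwards and 2.71% downwards, and 0 of the 7 called genes did. Acacb then had 0.63, Acsl1 0.64, Acsl4 0.48 and Acaca 0.06, and Fabp3 had -0.50, Eci1 -0.31 and Acot13 -0.14. Bdh1 alone passed (0.97, edgeR adjusted p = 0.0311), but the transcript used for its length carries only 111 bp of coding sequence. The length trend differs between the groups and cannot be told apart from the antibody in these 6 libraries.

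**Figure D4:**
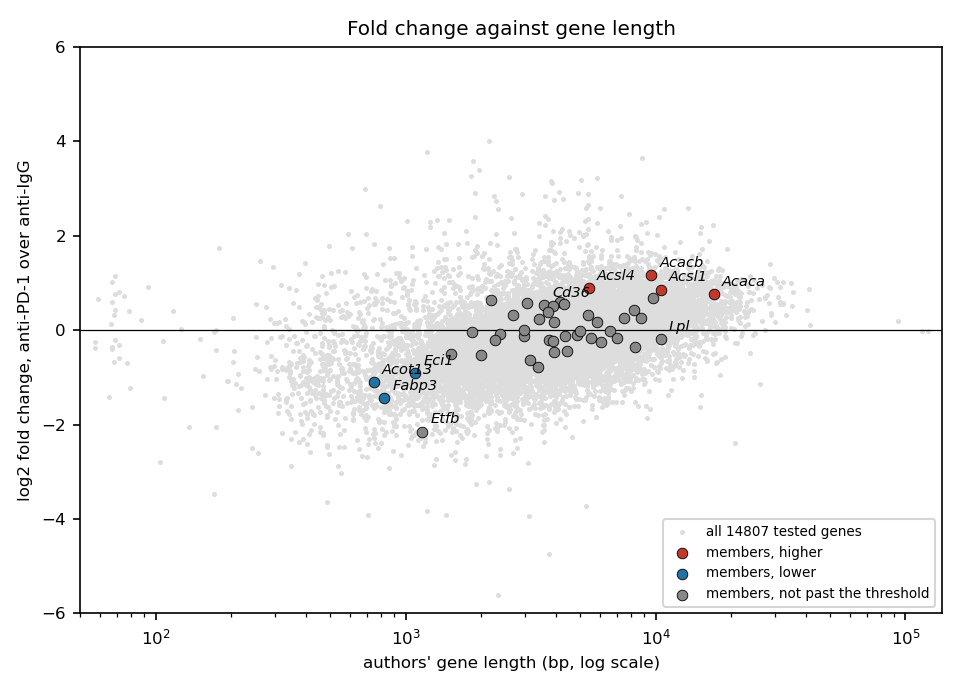
Log2 fold change, anti-PD-1 over anti-IgG, of the 46 genes (large points) and of all 14807 tested genes (small grey points) against the authors' gene length in bp on a log axis. The genes that fell (blue) lie at 744 to 1091 bp and those that rose (red) at 5405 to 17074 bp, along the slope of the grey cloud.

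Calls also depended on single libraries, among the 46 genes and among all tested genes. With all 6 libraries, 3118 of 14807 tested genes passed. Without anti-IgG library 2, 0 of the 46 genes passed, beside 532 of 15105 tested genes, and the edgeR adjusted p of Acot13 was 0.0565. Acot13 stayed past the threshold with any other library left out. Without anti-PD-1 library 1, 0 rose and 1 fell, beside 969 of 15243 tested genes past the threshold. Without anti-IgG library 3, 1 rose and 1 fell, beside 1564 of 15230. Without anti-PD-1 library 3, 4 rose and 1 fell, beside 1766 of 15256. Without anti-PD-1 library 2, 2 rose and 5 fell, beside 2507 of 15339. Without anti-IgG library 1, 3 rose and 4 fell, beside 3646 of 15110.

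Promoters of the 46 genes were read for motifs of the receptors that are known to control them, and for the GC box and the E-box. RefSeq promoters (GRCm38.p6, the 250 bases before the start, both strands) were found for 37 of the 46 genes, 41 in all. The core motif of nuclear receptors, AGGTCA, stood in 6 of these 41 promoters (14.6%), beside 14.0% of all 32851 promoters. The extended motif TCAAGGTCA, typical of ERR receptors, stood in 0 of the 41, beside 0.4% of all promoters. The GC box GGGCGG stood in 23 of the 41 (56.1%), beside 32.7% of all, and the E-box CACGTG in 1 (2.4%), beside 6.0% of all. Of the 7 genes past the threshold, 6 had a promoter in the table, and 0 of these held AGGTCA in this window. The windows below are from genes with it that are textbook targets of these receptors, shown 5′ to 3′ on the strand of the gene with the motif or its complement TGACCT in capitals.
Cpt1a, chr19:3323180-3323239, plus strand: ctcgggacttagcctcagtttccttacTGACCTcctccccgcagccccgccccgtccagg
Acadm, chr3:153944834-153944893, minus strand: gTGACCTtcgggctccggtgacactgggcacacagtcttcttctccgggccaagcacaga
Ucp3, chr7:100472815-100472874, plus strand: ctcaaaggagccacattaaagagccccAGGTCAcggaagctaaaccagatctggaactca
The motif matches are letters in a window and were not tested as sites. The 3 genes shown had log2 fold changes of 0.56 (Cpt1a), -0.47 (Acadm) and -0.62 (Ucp3), none past the threshold.

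Of 56 other genes of the pathway, 54 could be tested, 11 rose and 5 fell (median log2 fold change 0.11), beside 10.3% risen and 10.8% fallen of all tested genes. With the gene length trend removed 6 rose and 2 fell, and with the transcript length trend removed 3 rose and 1 fell. Of 12 regulators 7 rose and 0 fell, with a median of 0.82, or 0.61 with the gene length trend and 0.38 with the transcript length trend removed. Prkaa2, the AMP-activated kinase subunit alpha 2 that inactivates acetyl-CoA carboxylase, had 299, 267 and 206 CPM with anti-PD-1, against 129, 67.5 and 79.5 CPM with anti-IgG (log2 fold change 1.48, edgeR adjusted p = 0.00715). Ppara, the nuclear receptor of fatty acid oxidation, had 27.6, 50.0 and 14.7 CPM with anti-PD-1, against 5.28, 2.13 and 3.2 CPM with anti-IgG (3.11, adjusted p = 0.00737). Lpin1, a phosphatidate phosphatase that also acts as a coactivator of PPAR receptors, had 175, 166 and 156 CPM with anti-PD-1, against 98.3, 91.2 and 98.4 CPM with anti-IgG (0.79, adjusted p = 0.012; 0.109 with the gene length trend removed). The groups of all 3 genes were apart.

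The other regulators that rose were Esrrg (0.85), Nrip1 (0.86), Ppargc1b (0.93) and Prkaa1 (0.62), while Ppard, Rxra, Ppargc1a, Esrra and Perm1 did not pass. With the gene length trend removed 4 of the 12 rose, and with the transcript length trend removed 2, Ppara and Prkaa2. Of 12 genes of lipid storage and lipolysis 2 rose and 0 fell, and with either length trend removed 1 rose, Gpam. They were Gpam, the acyltransferase that begins triglyceride synthesis (229, 252 and 125 CPM with anti-PD-1, against 32.2, 12 and 23.7 CPM with anti-IgG; 3.16, edgeR adjusted p = 0.00391), and Abhd5, the activator of adipose triglyceride lipase (0.84, adjusted p = 0.0217).

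**Figure D5:**
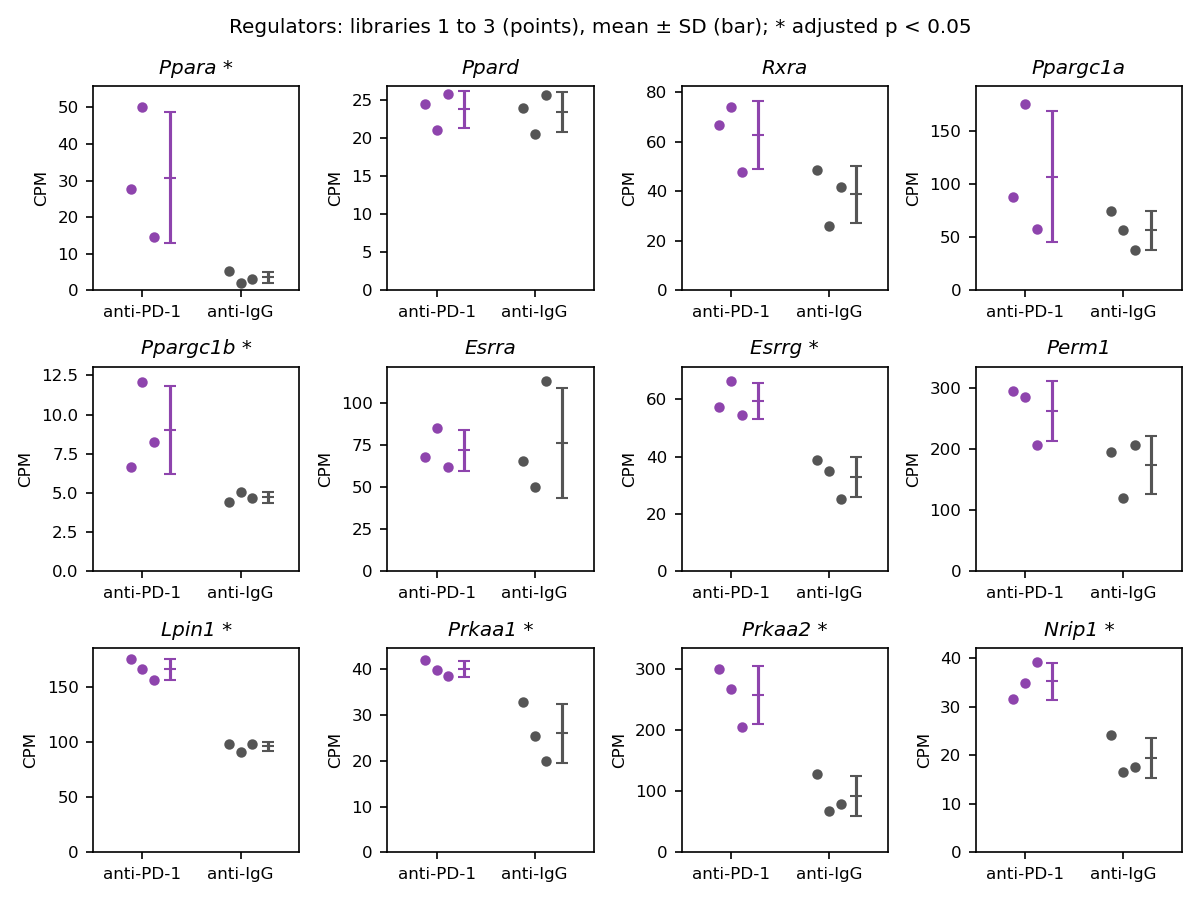
CPM of the 12 regulators in each library (points, libraries 1 to 3 of a group from left to right) with mean ± SD per group (bars, n = 3), anti-PD-1 left of anti-IgG and axes from 0; an asterisk marks an adjusted p under 0.05. In the 7 marked genes, all anti-PD-1 points lie above the anti-IgG points.

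Of 32 further uptake and oxidation genes 30 could be tested, and 2 rose and 5 fell (median -0.31). Fabp4, the binding protein of capillary endothelium and fat, had 118, 251 and 177 CPM with anti-PD-1, against 449, 653 and 591 CPM with anti-IgG (-1.63, edgeR adjusted p = 0.00679). Fabp5, the epidermal type of binding protein, had 15.2, 18.2 and 23.3 CPM with anti-PD-1, against 35.4, 73.3 and 60.5 CPM with anti-IgG (-1.58, adjusted p = 0.00684). In both genes every anti-PD-1 library lay below every anti-IgG library. Hsd17b10, a mitochondrial short-chain hydroxyacyl-CoA dehydrogenase, had 30.4, 55.8 and 42.1 CPM with anti-PD-1, against 85.2, 94.5 and 92.3 CPM with anti-IgG (-1.08, adjusted p = 0.0103; 0.119 with the gene length trend removed). Ech1 (-1.07) and Gpihbp1, which holds lipoprotein lipase on capillaries (-0.69), also fell. Abcd2, a transporter of the peroxisomal membrane, rose (0.87). With the gene length trend removed 1 of these 30 genes rose and 2 fell, and with the transcript length trend removed 0 rose and 1 fell.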

How the data were processed

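Messenger RNA of mouse left ventricle was sequenced in 6 libraries, 3 per group, named by their titles. The authors deposited a table of read counts per gene with a gene length column; per the submitters' processing notes, featureCounts was used with the mm10 build. The aligner, the use of strand and the handling of reads that fit several genes are not stated there. FPKM values deposited by the authors equalled, in the 1780 genes of 1000 or more reads, the count divided by gene length and a constant of the library, which was 0.953 to 1.15 times the summed counts.

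The main test of the counts was that of edgeR 4.0.16, run in R 4.3.3 (filterByExpr, TMM, glmQLFit with robust=TRUE, quasi-likelihood F test, 2-sided, Benjamini-Hochberg over 14807 genes, threshold 0.05), and the code was tested on simulated data. With 3 libraries per group an exact permutation test cannot go below p = 0.1, so single genes were tested only in the fit across all genes. Alternatives were upper quartile or RLE scaling, another count filter (none, or 1 CPM or more in 3 libraries), DESeq2 1.42.0, limma-voom (limma 3.58.1), limma-trend on the deposited FPKM after log2 (pseudocount 1 or 0.1), robust=FALSE, mitochondrially encoded genes left out, the replicate number as a block, each library left out, and length trends removed. A length trend was a natural spline of 5 degrees of freedom of each library's log2 CPM (prior count 2), on the authors' gene length or on the coding and 3′ UTR lengths of GENCODE M21, entered as an offset.

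The 46 genes and the other lists were chosen with earlier results of these data known. Values in every library are given for genes past the threshold and for the gene of each step with the highest mean FPKM; of the other lists, the 3 smallest p past the threshold are given with values. Further genes given with values in every library, Lpl, Cd36, Cpt1a, Cpt1b, Etfb, Mlycd, Acot1 and Acot2, were chosen after their values were seen. The result of 1 gene of the other lists is not reported here.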

Additional observations from a re-analysis of the deposited data

How the results depend on the processing

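Of the 46 genes, 4 rose and 3 fell in the comparison as reported. With no count filter 8 rose. With the gene length trend removed 2 rose and 0 fell, and 1526 of all tested genes passed; with the transcript length trend removed 1 rose and 0 fell, and 840 passed. With each library left out in turn, 0 to 4 rose, 0 to 5 fell and 532 to 3646 of all tested genes passed, the fewest without anti-IgG library 2; with 5 libraries an arm has 2 samples. Deviations from the group mean had correlations across genes of 0.12, -0.14 and 0.21 for libraries with the same replicate number. For libraries with different numbers the correlations ran from -0.34 to 0.20. With deviations taken within groups of 3, these values cannot decide whether the numbers pair the libraries. With the replicate number as a block 3 rose and 4 fell, and 3367 genes passed; Acsl1 was lost (adjusted p = 0.0514) and Etfb passed (0.0065). With the block and the gene length trend removed together 2 rose and 1 fell, and 1466 passed. The other alternatives gave 3 to 6 risen and 3 to 4 fallen genes.

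The genes whose values changed sign were not past the threshold. Step medians that changed sign with a library left out or 1 length trend removed are given with their steps or here. The electron transfer median, -0.04 as reported, was 0.01 with the gene length trend removed and 0.46 with the transcript length trend removed. It ran from -0.27 to 0.20 with a library left out. The median of hydration, dehydrogenation and thiolysis, -0.12 as reported, was 0.01 with the transcript length trend removed. The uptake median, -0.01 as reported, ran from -0.27 to 0.20 with a library left out. So did that of thioesterases (0.18) from -0.59 to 0.68 and that of peroxisomal oxidation (0.01) from -0.37 to 0.30. Hadh had 0.00075 with RLE scaling, 0.00075 with DESeq2 and 0.0054 without mitochondrially encoded genes. Ehhadh had -0.089 with upper quartile scaling and -0.0057 with the 1 CPM filter. Under limma-trend with pseudocount 1, Hadh had 0.0076, Hadhb 0.014 and Ehhadh -9.1e-05, also with the FPKM filter. With pseudocount 0.1, Hadh had 0.0080, Hadhb 0.014, Acot1 -0.10 and Ehhadh -0.0078. With limma-voom Acot1 had -0.26 and Ehhadh -0.049, and with the block -0.15 and -0.037. With the gene length trend removed, Cpt2 had 0.23, Acads 0.13, Hadha -0.045, Acaa2 0.059, Etfa 0.41 and Mlycd 0.072. With the block added, Cpt2 had 0.22, Acads 0.16, Hadha -0.049, Acaa2 0.061, Etfa 0.45, Mlycd 0.020, Slc27a1 -0.065, Etfdh -0.030 and Acot1 -0.11. With the transcript length trend removed, Cpt2 had 0.23, Acads 0.048, Echs1 0.0014, Hadh 0.25, Hadhb 0.22, Eci2 0.35, Etfa 0.46, Mlycd 0.10, Acaa1a 0.012 and Ehhadh -0.0076.

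With a library left out the sign also changed for Hadh (-0.23 to 0.15), Hadhb (-0.22 to 0.26), Etfa (-0.27 to 0.20), Ehhadh (-0.37 to 0.30), Ucp2 (-0.43 to 0.099), Mlycd (-0.49 to 0.099), Acot1 (-0.59 to 0.68), Eci2 (-0.42 to 0.0020), Slc27a1 (-0.20 to 0.47), Acsl3 (-0.29 to 0.019), Acsl5 (-0.23 to 0.052), Hadha (-0.015 to 0.53), Etfdh (-0.055 to 0.44) and Cpt2 (-0.27 to 0.020). The cause of these changes was not tested. Depth limits Cpt1b most, at 8 to 27 reads a library.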
